A study of Mus musculus with 4 samples.

Results

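The comparison described here is that of anagen with telogen in the dermal white adipose tissue (dWAT) of young mice. It rests on 2 of the 4 RNA sequencing libraries of the study, YTD (young mice, telogen, dWAT) and YAD (young mice, anagen, dWAT), with OTD and OAD from old mice as the other pair. All mice were C57BL/6, with no transgene or drug named in the labels. Anagen was induced by depilation, so YAD skin was plucked and differs from YTD skin in that treatment as well as in phase. The design text gives an age of 2 months for young and 18 months for old mice. The age field of the labels gives 18 months for YTD and 2 months for OAD, against their titles, and the titles were followed. Each library was made from the dWAT of a pool of mice, scraped from below the hair follicles (HFs) after the subcutaneous fat and the panniculus carnosus, a sheet of skeletal muscle, had been taken off. There is 1 library per side and no replicate. No p-value and no error can be given for any difference below, and each is one between 2 single libraries.

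The value of a gene is its FPKM, the fragments assigned to it divided by its listed length and by how many fragments the library had mapped. The change is log2(FPKM + 1) in YAD minus that in YTD, which understates the change of low genes, and a gene was counted as higher or lower when this was at least 1 in size. Of the 22913 genes listed, 13738 had an FPKM of at least 1 in YTD or YAD and were kept. P2ry14 at 1.0001 was the last gene inside that limit and Gm5901 at 0.9993 the first outside it. A gene under 1 FPKM in YTD passed only if it was higher in YAD, and the reverse holds. The list counts below are therefore partly set by the filter where members are low. A second scale, called rescaled here, leaves out the 13 mitochondrially encoded genes and the 113 genes whose symbol starts with Krt, and sets the sum of the rest to 1000000 in each library, which left 13627 genes. The depth, estimated from the lowest values, was roughly 19000000 fragments in YTD and 18700000 in YAD, so the 2 libraries were about equally deep.

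HFs cycle between rest (telogen) and growth (anagen). In anagen the lower follicle is rebuilt and grows down into the dWAT, where matrix cells divide around the dermal papilla and differentiate into the hair shaft and its sheaths, and melanocytes load the shaft with pigment. The dWAT is known to thicken in anagen and to thin again afterwards. A sample scraped at the bottom of the follicles can therefore hold follicle bulbs in anagen, and muscle, vessels, nerve and immune cells in either phase. In bulk tissue, fewer cells of a type and less RNA per cell cannot be told apart, and a lower share of one type can also reflect a higher share of another.

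The make-up of the 2 libraries differed widely. Mitochondrially encoded genes held 44.7% of the summed FPKM in YTD and 14.4% in YAD. The 20 skeletal muscle markers held 10.4% in YTD and 2.09% in YAD. The 113 genes with Krt symbols held 0.119% in YTD and 13.9% in YAD, most of it in the 56 keratin-associated protein genes, at 0.0634% and 10.2%. YTD was thus the library rich in mitochondrial and muscle transcripts, and YAD the one rich in hair transcripts. The 82 cytosolic ribosomal protein genes held 6.23% in YTD and 17.4% in YAD. The 10 adipocyte markers, from Cfd and Fabp4 to the receptors Adrb3 and Acvr1c, all passed the filter, and they held 0.498% in YTD and 0.263% in YAD. Adipocyte transcripts were thus present in both libraries. Of the 10 markers, Cfd, an adipocyte-secreted protease, was the highest in YTD at 3216 FPKM in YTD and 671 FPKM in YAD. The part that muscle, follicle and depilation take in the differences below was not tested.

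**Figure D1:**
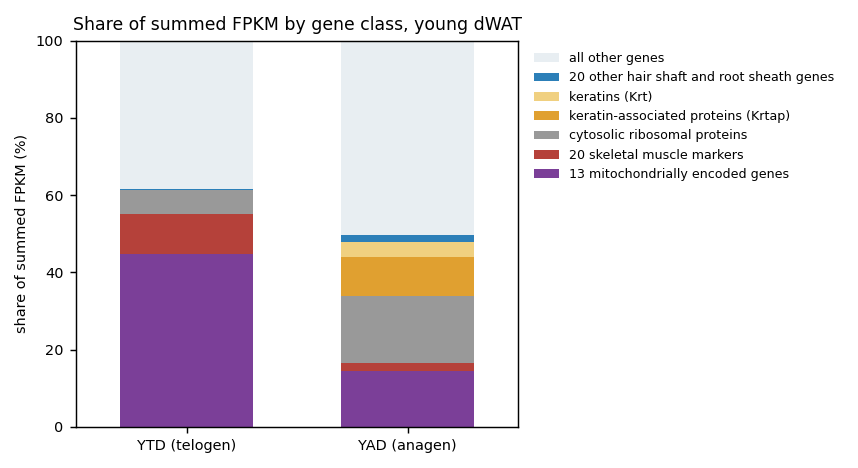
Stacked bars of the share of summed FPKM (percent, y axis) held by 6 gene classes and by all other genes in YTD and YAD, 1 library each. Mitochondrially encoded genes fill 44.7% of the YTD bar and 14.4% of the YAD bar, and keratin-associated proteins 0.0634% and 10.2%.

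As deposited, 2829 of the 13738 genes (20.6%) were higher in YAD and 2938 (21.4%) lower, and the median change of all genes was 0.03. After rescaling, 4503 of 13627 genes (33.0%) were higher and 2122 (15.6%) lower, and the median became 0.44. The split between directions therefore depends on the scale. Rescaling added 0.47 to the change of a highly expressed gene, because the sum that remained was 687026 FPKM in YTD and 497052 FPKM in YAD. A list is read below against the median of 0.44 and the shares of 33.0% and 15.6%, and its counts as deposited are given where they differ in kind. The rises reached further than the falls. Rescaled, 316 genes were higher by at least 4 and 3 were lower by at least 4.

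**Figure D2:**
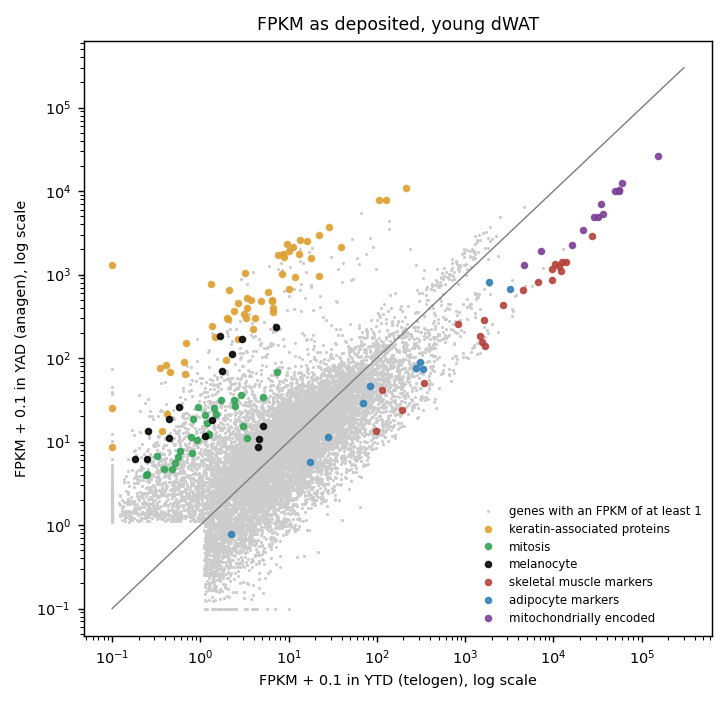
FPKM as deposited plus 0.1 in YTD (x axis, log scale) against YAD (y axis, log scale), 1 grey point per gene with an FPKM of at least 1 in either library, with gene groups in colour and the line of equal values. Keratin-associated proteins, melanocyte and mitosis genes lie above the line, and mitochondrially encoded genes and skeletal muscle markers below it.

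Hair keratins and keratin-associated proteins, the structural proteins of the shaft and its sheaths, were higher in YAD. Of 98 Krt symbols that passed the filter, 92 were higher as deposited and 1 was lower, with a median change of 5.88 against 0.03 for all genes. All 55 keratin-associated protein genes that passed were higher, by 3.23 to 10.37. Krtap8-1 was at 216 FPKM in YTD and 11018 FPKM in YAD. Krtap7-1 went from 127 to 7839 FPKM and Krtap22-2 from 105 to 7739 FPKM. These genes lie in clusters of similar copies, so reads may be split between neighbours, and their single values are less certain than their sum. Krt71, a keratin of the inner root sheath, was at 136 FPKM in YTD and 3502 FPKM in YAD, a change of 4.67. The basal keratins Krt5 and Krt14, named after their values were seen, were at 35.0 and 34.3 FPKM in YTD and at 469 and 222 FPKM in YAD. Both are made by the basal layer of the epidermis and by the outer root sheath.

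The other genes of the shaft and inner root sheath moved with them. All 19 that passed the filter were higher after rescaling, with a median of 5.28. Trichohyalin (Tchh), which hardens the inner root sheath and medulla, was at 51.8 FPKM in YTD and 2693 FPKM in YAD, 71.8-fold higher after rescaling. S100a3, a calcium-binding protein of the hair cuticle, was at 136 FPKM in YTD and 4352 FPKM in YAD. Padi3, which deiminates trichohyalin, was at 6.89 and 213 FPKM. The desmosomal cadherin Dsg4 was at 0.634 and 40.3 FPKM. Of the 15 genes with the largest rescaled rises, Gprc5d (6.55), Vsig8 (6.30), Tchhl1 (6.19) and Tchh (6.15) belong to this list.

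The transcription factors that specify matrix and shaft were also higher, 20 of 20 after rescaling and 20 of 20 as deposited, with a rescaled median of 4.66. Hoxc13, which drives hair keratin genes, was at 4.60 FPKM in YTD and 144 FPKM in YAD. Foxn1, the factor missing in nude mice, was at 1.30 and 48.9 FPKM, and Msx2 at 3.25 and 119.8 FPKM. Dlx3 had the highest level of the list in YAD, 231 FPKM against 6.89 FPKM in YTD. Cux1 (1.78) and Ovol2 and Bcl11b (1.91 each) had the smallest changes. Genes of the interfollicular epidermis were higher in 11 of 11 cases, with a median of 4.40. Involucrin (Ivl), a cornified envelope precursor also made in the inner root sheath, was at 0.827 FPKM in YTD and 91.1 FPKM in YAD, whereas loricrin (Lor) reached only 6.94 FPKM and Casp14 only 1.23 FPKM in YAD. Sebaceous markers were sparse, with 4 of 9 passing the filter.

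Pigment genes held the largest rescaled change of all named genes. Pmel, which forms the fibrils of the melanosome, was at 1.58 FPKM in YTD and 186 FPKM in YAD, 163-fold higher after rescaling and 118-fold as deposited. Of 16 melanocyte genes, 16 were higher after rescaling and 15 as deposited, with a rescaled median of 4.22. The enzymes of melanin synthesis Dct (2.86 and 168 FPKM), Tyrp1 (2.18 and 113 FPKM) and Tyr (0.471 and 25.5 FPKM) changed by 6.04, 5.77 and 4.95. The genes that set the lineage moved less. Mitf, the master regulator of melanocytes, was at 4.48 FPKM in YTD and 10.5 FPKM in YAD, a change of 1.56. Sox10, shared with Schwann cells, was at 4.35 and 8.43 FPKM, and Kit at 1.02 and 11.6 FPKM. Differentiation genes thus differed by more than Mitf and Sox10, whose levels were already several FPKM in telogen. Which cells made Mitf and Sox10 there was not tested.

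Cell division genes were higher in YAD. Of 27 genes of mitosis, 27 were higher on both scales, with a rescaled median of 3.33. Of 28 DNA replication genes, 27 were higher after rescaling and 24 as deposited, with a median of 2.31. The proliferation marker Mki67 was at 0.843 FPKM in YTD and 25.5 FPKM in YAD, a change of 4.55. Cdc20, the activator of the anaphase-promoting complex, was at 1.61 and 31.3 FPKM (4.26), and the mitotic cyclin Ccnb1 at 1.02 and 20.9 FPKM (4.12). The replication genes were led by Rrm2 (3.63), the small subunit of ribonucleotide reductase, and Mcm5 (3.43), a subunit of the replicative helicase. Pcna, the sliding clamp, was the most abundant of them, at 31.2 FPKM in YTD and 81.0 FPKM in YAD. Genes of mitosis are known to share a CCAAT box and a cell cycle homology region in their promoters. Shown are 2 promoters that held the letters of both, those of the genes with the largest changes among such members. The sequences are the 250 bases before the RefSeq gene start on GRCm38.p6, written along the gene's strand, with matches to CCAAT or TTTGAA on either strand in capitals.
Mki67 promoter (chr7:135716380-135716629, minus strand): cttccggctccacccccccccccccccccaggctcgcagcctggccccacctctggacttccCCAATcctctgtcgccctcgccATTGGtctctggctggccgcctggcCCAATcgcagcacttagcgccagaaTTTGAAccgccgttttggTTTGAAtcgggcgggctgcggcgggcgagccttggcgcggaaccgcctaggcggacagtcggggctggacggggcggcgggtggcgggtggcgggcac
Cdc20 promoter (chr4:118437344-118437593, minus strand): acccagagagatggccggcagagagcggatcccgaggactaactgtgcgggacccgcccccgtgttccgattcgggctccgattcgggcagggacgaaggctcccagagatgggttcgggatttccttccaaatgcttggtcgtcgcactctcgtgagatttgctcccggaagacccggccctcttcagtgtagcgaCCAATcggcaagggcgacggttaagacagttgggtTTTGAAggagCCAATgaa
Mki67 held 5 such matches and Cdc20 held 3, where a match to each motif was a condition for showing them. A match is a description of the letters, not a binding site. Of 22 mitosis genes with a promoter in the RefSeq table, 18 (81.8%) held CCAAT, against 40.0% of 10209 kept genes, and 9 (40.9%) held TTTGAA, against 13%. The E2F site letters TTCCCGC were in 6 of 23 replication promoters (26.1%), against 8.07% of kept genes. In the promoters printed, no match overlapped another.

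Wnt signals instruct the matrix and its precursors. Ligands bind Frizzled receptors with Lrp5 or Lrp6, R-spondins strengthen the signal through Lgr receptors, and beta-catenin with Lef1 or Tcf7 switches on targets, some of which feed back as inhibitors. Of 21 ligand and R-spondin genes listed, 15 passed the filter. Of these, 13 were higher after rescaling and none was lower, with a median of 2.48, and 13 were higher and 1 lower as deposited. Wnt10b was at 0.523 FPKM in YTD and 26.2 FPKM in YAD (4.93), and Wnt3 at 0.462 and 15.4 FPKM (4.26). Both were under 1 FPKM in YTD and passed only through YAD, so the count is partly set by the filter. Wnt11 had the highest level, 9.26 FPKM in YTD and 63.1 FPKM in YAD. Wnt9a, at 5.88 and 2.24 FPKM, was the ligand with the lowest change, -0.80. Of 18 receptors, 11 were higher and 2 lower. Fzd10 was at 2.76 and 35.5 FPKM (3.85), while Fzd4, which is also found in endothelium, was at 56.8 and 13.6 FPKM (-1.56). Fzd9 was at 11.3 and 1.69 FPKM (-1.98). The receptors therefore moved in both directions.

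Targets and effectors of the Wnt pathway were higher in 9 of 11 cases, with a median of 2.71. Lef1 was at 1.77 FPKM in YTD and 54.4 FPKM in YAD (4.95), and the feedback inhibitor Axin2 at 4.12 and 23.8 FPKM (2.81). Of 11 secreted or membrane antagonists, 7 were higher and 2 lower. Notum, which strips the lipid from Wnt ligands, was at 0.108 and 12.9 FPKM (4.54), and Wif1, which binds Wnt ligands, at 0.953 and 23.2 FPKM (4.32). Both are also known from the dermal papilla. Sfrp5, a decoy receptor known in fat, was at 10.5 and 3.09 FPKM (-1.18), and Frzb at 6.02 and 1.64 FPKM (-1.18).

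**Figure D3:**
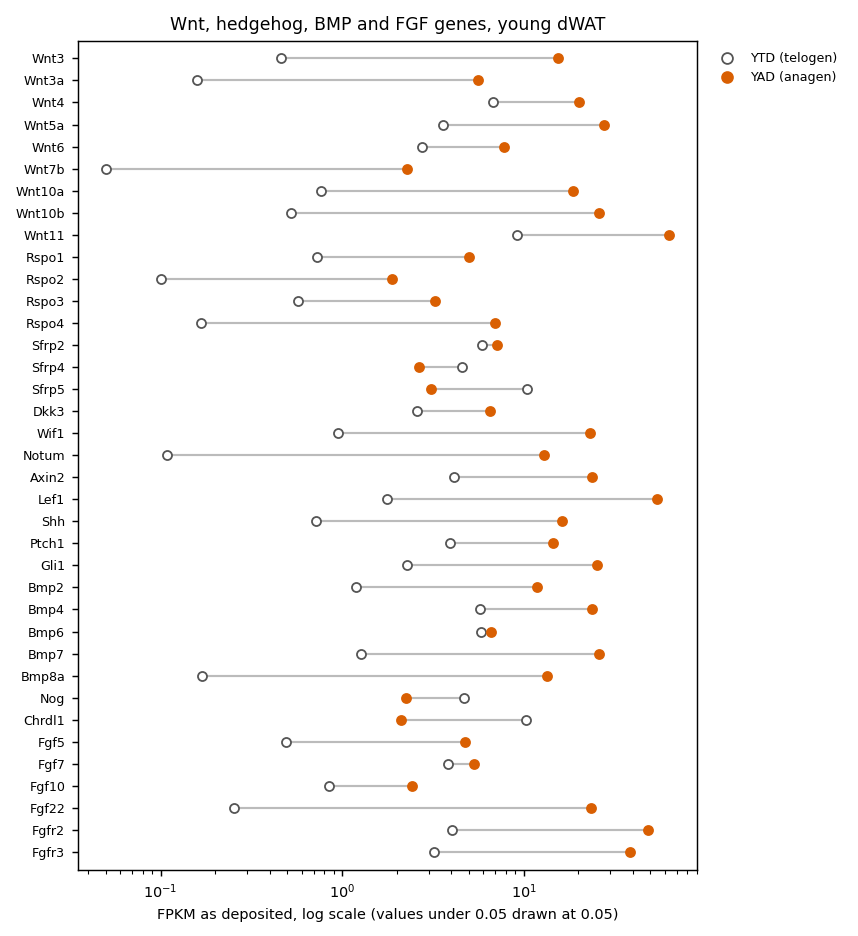
FPKM as deposited (x axis, log scale) of genes of the Wnt, hedgehog, BMP and FGF pathways (y axis) in YTD (open) and YAD (filled), 1 library each, joined by a line, with values under 0.05 drawn at 0.05. Most filled points lie to the right of the open ones, from 0.523 to 26.2 FPKM for Wnt10b, while Sfrp5 and Chrdl1 lie to the left.

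Sonic hedgehog (Shh), which matrix cells secrete to their neighbours, was at 0.719 FPKM in YTD and 16.4 FPKM in YAD (4.05). Of 12 hedgehog genes, 10 were higher and none lower. The target Gli1 was at 2.28 and 25.4 FPKM (3.59). Desert hedgehog (Dhh), a Schwann cell ligand, was at 3.48 and 1.36 FPKM (-0.70). BMP signals hold follicles in telogen and later direct shaft differentiation. Of 13 genes in the BMP ligand and antagonist list, 6 were higher and 2 lower. The 6 include Bmp1 (11.8 and 22.1 FPKM, 1.32), which despite its name is a protease and not a BMP ligand. The median of the list was 0.60, close to the 0.44 of all genes. Bmp8a (0.169 and 13.4 FPKM, 4.49), Bmp7 (1.27 and 26.1 FPKM, 4.23), Bmp2 (1.2 and 11.9 FPKM, 3.18) and Bmp4 (5.77 and 23.7 FPKM, 2.38) were higher. Among the antagonists, Bambi (2.38 and 30.4 FPKM, 3.80) was higher, Chrdl1 (10.3 and 2.12 FPKM, -1.61) was lower, and noggin (Nog) was at 4.72 and 2.24 FPKM (-0.51). The antagonists therefore moved in both directions. Of 13 receptor, SMAD and ID genes, 8 were higher and none lower, with Id1, a target of BMP signals, at 47.8 and 119 FPKM (1.77).

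FGF genes split as well, with 5 of 12 higher, 2 lower and a median of 0.49. Fgf22 (0.253 and 23.4 FPKM, 5.13) and the receptors Fgfr2 (4.05 and 48.7 FPKM, 3.84) and Fgfr3 (3.2 and 38.8 FPKM, 3.80) were higher. Fgf5, the signal that ends anagen, was at 0.490 and 4.78 FPKM (2.63). Fgf13 (32.4 and 2.84 FPKM, -2.84) and Fgf1 (12.2 and 2.36 FPKM, -1.71) were lower. PDGF ligands, which adipocyte precursors are known to send to the dermal papilla, were not among the genes that gained. None of 6 PDGF ligand and receptor genes was higher on either scale, and 1 was lower after rescaling and 4 as deposited. Pdgfb, made by endothelium, was at 21.1 and 5.28 FPKM (-1.45). Of 18 dermal papilla genes listed, 16 passed the filter. Of these, 11 were higher and none lower after rescaling, with a median of 1.98, and 9 higher and 1 lower as deposited. They were led beside Notum and Wif1 by Crabp1 (0.872 and 19.6 FPKM, 4.15) and Corin (0.151 and 7.58 FPKM, 3.74). All of these leading genes were under 1 FPKM in YTD and passed only through YAD, so the count is partly set by the filter. Stem cell genes of the follicle divided, with 6 of 12 higher and 3 lower. Lhx2 was at 1.5 and 20.6 FPKM (3.74), and Cd34, shared with endothelium and fat progenitors, at 75.2 and 17.8 FPKM (-1.58).

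Adipocyte genes were lower in YAD. Of 20 genes of adipocyte identity and secreted factors, 15 were lower after rescaling and 18 as deposited, and none was higher on either scale. Their rescaled median was -1.28, against 0.44 for all genes. Adiponectin (Adipoq) was at 280.5 FPKM in YTD and 76.5 FPKM in YAD (-1.40), and resistin (Retn) at 329 and 73.5 FPKM (-1.69). Pparg, the master regulator of adipocytes, was at 18.8 and 5.73 FPKM (-1.18), whereas Cebpa was at 101 and 83.4 FPKM (0.18). Car3 (5714 and 731 FPKM, -2.50) and the insulin-responsive glucose transporter Slc2a4 (208 and 29.6 FPKM, -2.32) had the largest falls, and skeletal muscle, whose markers moved the same way by a median of -2.55, also makes both. For the 10 markers more restricted to adipocytes the median was -0.96, and 5 were lower and 5 within the threshold. Lipid droplet and lipolysis genes had a median of -0.78 with 7 of 15 lower. They ran from Fitm1 (364 and 33.8 FPKM, -2.94) to Mgll (56.9 and 44.8 FPKM, 0.12). The change of Fitm1 lay within the range of the skeletal muscle markers, -3.11 to -0.98, and the part of muscle in it was not tested.

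Lipid synthesis did not move as 1 group. De novo lipogenesis had a median of 0.05, which was -0.41 as deposited and 0.42 in TPM, with 3 genes higher and 3 lower of 15. The desaturase Scd2 was at 34.3 and 146 FPKM (2.53), while Scd1, the form of adipocytes and sebocytes, was at 558 and 203 FPKM (-0.99). Elovl6 (2.72 and 12 FPKM, 2.34) and Acly (24.9 and 42.4 FPKM, 1.22) were higher, and Fasn was at 93.0 and 69.5 FPKM (0.05). Acacb (34.3 and 6.14 FPKM, -1.93), Thrsp (282 and 82.9 FPKM, -1.29) and Mlxipl (25.6 and 8.30 FPKM, -1.11) were lower. Triglyceride synthesis had 3 of 9 genes lower and 1 higher, with Gpd1 at 296 and 57.7 FPKM (-1.88) and Lpin2 at 1.68 and 4.46 FPKM (1.53).

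Cholesterol synthesis was the lipid pathway that was higher as a whole. Of 20 genes, 18 were higher after rescaling and 16 as deposited, and none was lower, with a rescaled median of 2.36. Squalene epoxidase (Sqle) was at 3.61 FPKM in YTD and 45.4 FPKM in YAD (3.88), and Lss, which closes the sterol rings, at 2.09 and 17.9 FPKM (3.19). The regulator Srebf2 was at 9.40 and 45.6 FPKM (2.66), against 35.8 and 39.5 FPKM (0.60) for Srebf1. Sc5d (0.98) and Fdft1 (0.82) stayed within the threshold. The letters TCACNCCAC of the sterol regulatory element were in 1 of 14 promoters, that of Hmgcs1, against 1.25% of kept genes.

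Many genes of energy use were lower, and a number of them are abundant in muscle. The 13 mitochondrially encoded genes were all lower as deposited, by -1.85 to -2.85, with mt-Co1 at 55799.8 FPKM in YTD and 10280.5 FPKM in YAD. Of 39 nuclear genes of oxidative phosphorylation, 25 were lower after rescaling and 36 as deposited, with a rescaled median of -1.10. Glycolysis had 10 of 17 genes lower and 3 higher, with a median of -1.58. Fatty acid oxidation had 8 of 21 lower and 1 higher, with a median of -0.90, and 15 lower as deposited. The 20 skeletal muscle markers had 19 lower and a median of -2.55, from Actn3 at 1688 and 141 FPKM (-3.11) to Myh2 at 115 and 41.9 FPKM (-0.98). The lists thus had smaller falls than muscle itself, and their members were not alike.

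Where a protein has a muscle form and another form, the 2 were set apart, in 14 pairs chosen after their values had been seen. All 13 muscle forms were lower after rescaling, by -2.11 to -3.05, and 10 of the 14 other forms were higher and none lower, with a median of 1.29. As deposited, the 13 muscle forms were lower as well, but only 6 of the other forms were higher and none lower, with a median of 0.82. Pgam2 was at 2337 FPKM in YTD and 203 FPKM in YAD (-3.05), against 40.5 and 115 FPKM (1.96) for Pgam1. Cpt1b, the muscle gate of fatty acid oxidation, was at 86.8 and 14.2 FPKM (-2.11), against 7.0 and 18.4 FPKM (1.76) for Cpt1a. Of the ribosomal protein L3 pair, Rpl3l was at 389 and 44.3 FPKM (-2.66) and Rpl3 at 336 and 906 FPKM (1.90). Cytosolic ribosomal protein genes as a list had 49 of 80 higher and 2 lower (Rpl3l and Rpl39l), with a median of 1.13, but as deposited only 8 were higher.

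**Figure D4:**
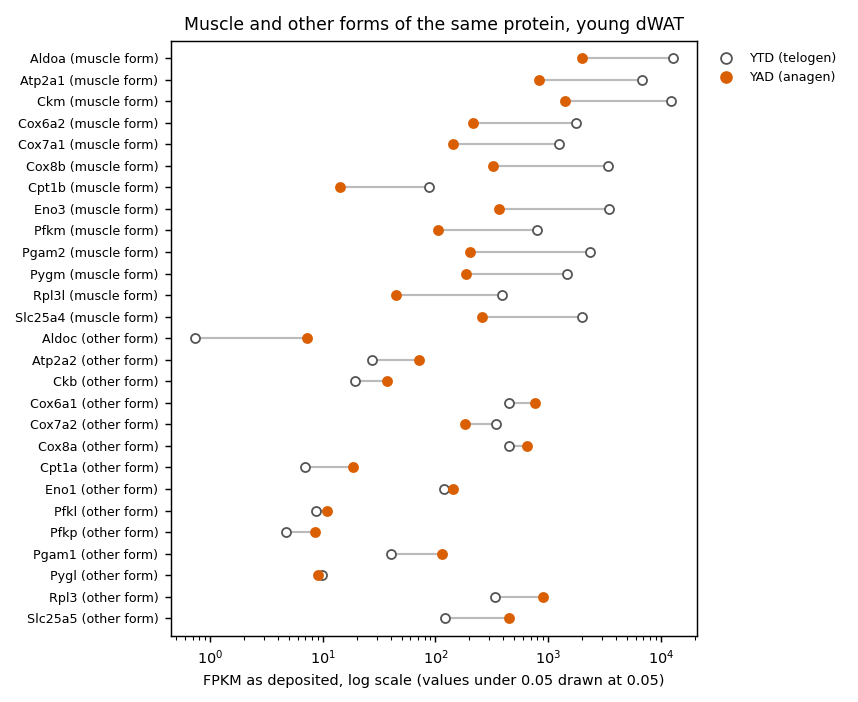
FPKM as deposited (x axis, log scale) of muscle and other forms of the same proteins (y axis) in YTD (open) and YAD (filled), 1 library each. All 13 muscle forms have their YAD point to the left, and the other forms have it to the right except Cox7a2 and Pygl.

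Muscle genes were frequent among the 15 largest falls. Myl4, Myog, Hfe2, Ankrd1, Popdc2, Popdc3, Dusp13 and Dupd1 are known from striated muscle, and Myog, the factor of muscle differentiation, was at 27.1 FPKM in YTD and 1.26 FPKM in YAD (-3.52). Mup11, a major urinary protein whose gene has near-identical copies, was at 64.8 and 1.54 FPKM (-4.54) and is uncertain for that reason. Ly6c2, a marker of monocytes with a similar neighbour, Ly6c1, was at 10.1 FPKM in YTD and listed at 0 in YAD, at least 24.8-fold lower as deposited.

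Endothelial markers were lower in YAD, and most stromal genes stayed within the threshold after rescaling. Of 15 endothelial markers, 11 were lower after rescaling and 15 as deposited, with a rescaled median of -1.15. Pecam1 was at 69.1 and 18.3 FPKM (-1.43). Fibroblast and fat progenitor markers had a median of -0.63, with 4 of 11 lower and 2 higher, and 7 lower and 1 higher as deposited. Ly6a (Sca-1) was at 400.2 and 65.8 FPKM (-2.13), while Pdgfra was at 3.80 and 3.08 FPKM (0.14) and Dpp4, a marker of early progenitors, at 2.45 and 8.82 FPKM (2.04). Fibrillar collagens and their enzymes had 1 of 20 genes lower, 2 higher and a median of -0.48. As deposited, 9 were lower and none higher, with a median of -0.80. Col1a1 was at 133 and 64.4 FPKM (-0.58 rescaled). Other matrix genes had a median of -0.01 (0.35 in TPM), with Tnc (1.72 and 5.20 FPKM, 1.71) higher and Lum (51.1 and 11.3 FPKM, -1.66) lower. Smooth muscle and pericyte markers had a median of -0.35, which was 0.03 in TPM. Schwann cell markers had a median of -0.74, with 4 of 10 lower and 2 higher. The myelin gene Mbp (151 and 22.4 FPKM, -2.27) was lower, and Egr2 (2.46 and 11.0 FPKM, 2.34), also an immediate early gene, was higher. Lymphatic markers (5 passing) and red blood cell markers (5 passing) had medians of -0.53 and -0.93.

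Most macrophage markers and chemokines were lower as well. Of 13 macrophage markers, 9 were lower, with a median of -1.12. Lyz2 was at 237 and 47.6 FPKM (-1.84), and C1qa at 80.6 and 27.6 FPKM (-1.06). Mast cell markers had 3 of 5 lower, with the chymase Cma1 at 15.2 and 3.30 FPKM (-1.59). Neutrophil markers had 3 of 10 passing and all 3 within the threshold, with S100a8 at 114 and 56.7 FPKM (-0.53), and lymphocytes were barely represented, with 1 T cell marker and no B or plasma cell marker passing. Chemokines had 12 of 19 lower and 2 higher, with a median of -1.36. Ccl5 was at 7.88 and 0.547 FPKM (-2.57) and Ccl2 at 5.95 and 0.461 FPKM (-2.33). Both rest on few fragments in YAD, an estimated 2.82 for Ccl5 and 3.84 for Ccl2, so their changes are uncertain. The 2 higher ones were Cxcl14, which keratinocytes make, at 24.3 and 143 FPKM (2.99), and Cx3cl1 at 2.06 and 4.68 FPKM (1.38, and 0.89 as deposited).

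Interferon-stimulated genes were lower in 14 of 17 cases and higher in none, with a median of -1.66, on a par with glycolysis. Ifi27l2a was at 1351 FPKM in YTD and 112 FPKM in YAD (-3.12). Ifit3, an antiviral effector, was at 17.3 and 2.01 FPKM (-2.38), and the interferon regulator Irf7 at 23.0 and 4.21 FPKM (-1.86). The response element core of these genes is written GAAANNGAA. The promoter of Ifit3 is shown because its gene had the largest change among members whose promoter held the core. It is again the 250 bases before the RefSeq gene start on GRCm38.p6 along the gene's strand, with matches on either strand in capitals.
Ifit3 promoter (chr19:34583279-34583528, plus strand): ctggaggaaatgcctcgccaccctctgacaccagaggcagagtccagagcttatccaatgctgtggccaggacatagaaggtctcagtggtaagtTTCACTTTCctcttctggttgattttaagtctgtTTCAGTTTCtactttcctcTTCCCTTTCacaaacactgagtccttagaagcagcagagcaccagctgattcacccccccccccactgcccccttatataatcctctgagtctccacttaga
It held 3 matches, where a match was a condition for showing it. Of 10 interferon-stimulated promoters in the RefSeq table, 6 (60.0%) held the core, against 7.4% of the 10209 kept genes.

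Clock and early response genes moved within their lists. Of 15 clock genes, 6 were lower and 1 higher, with a median of -0.73. Dbp was at 90.2 and 8.09 FPKM (-2.94) and Nr1d1 at 30.7 and 5.91 FPKM (-1.83), while Arntl, which peaks opposite to them in the day, was at 1.76 and 4.25 FPKM (1.42). The labels give no hour of sampling, so phase of the day and of the hair cycle cannot be told apart here. Of 22 immediate early genes, 10 were higher and 4 lower. Egr3 (1.44 and 56.3 FPKM, 5.21) and Junb (19.5 and 159.9 FPKM, 3.46) were higher, Fos was at 12.3 and 7.68 FPKM (-0.20), and Nr4a1 (59.5 and 10.4 FPKM, -2.00) was lower.

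**Figure D5:**
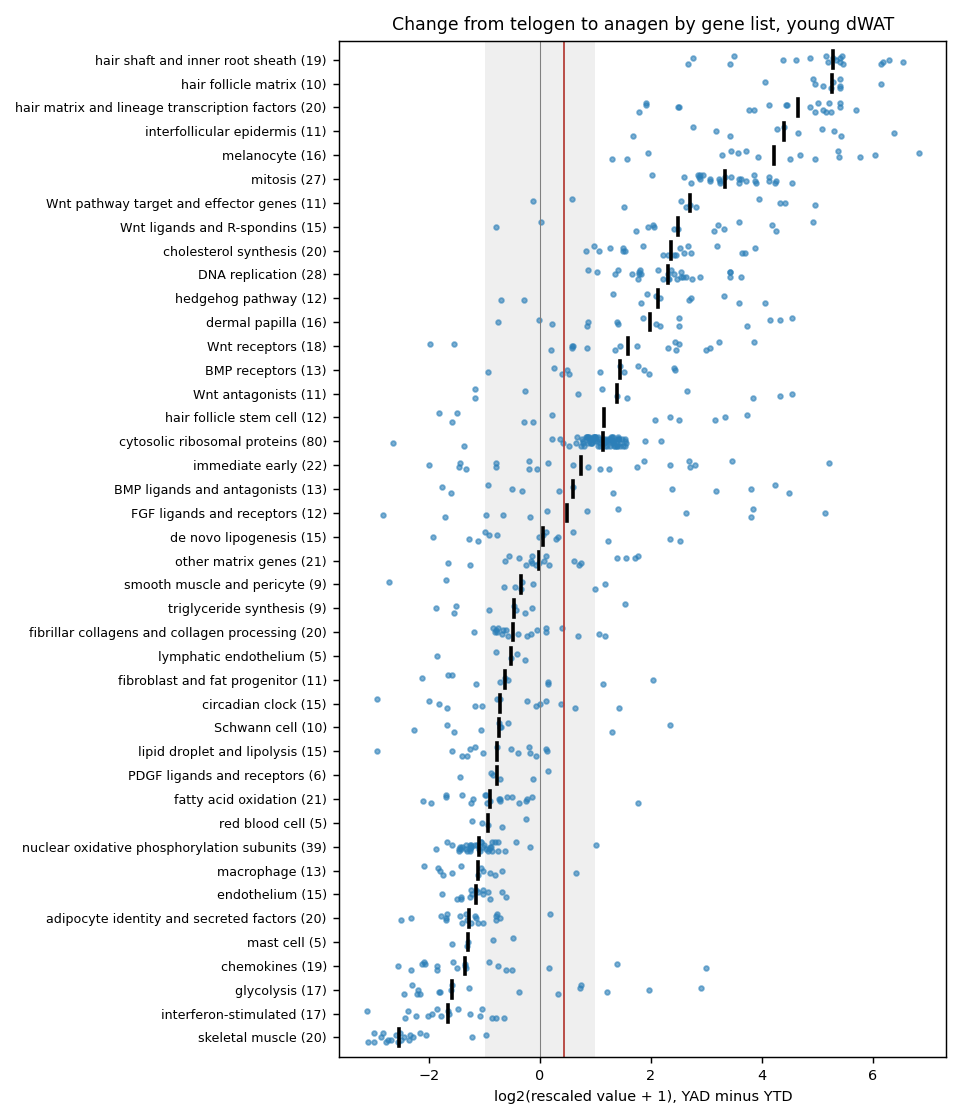
Change in log2(rescaled value + 1), YAD minus YTD (x axis), of each gene (points) by gene list (y axis, number of genes that passed the filter in brackets), with the list median (black bar), the median of all genes at 0.44 (red line) and the range within 1 of no change (grey). Shaft, matrix, pigment and division lists lie to the right with medians of 2.31 to 5.28, and skeletal muscle lies farthest to the left at -2.55.

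The old pair, OAD against OTD, was computed the same way over the same 13627 genes, and 3295 (24.2%) were higher and 2589 (19.0%) lower. Of the genes higher in the young pair, 3087 were higher in the old pair, which is 68.6% of the young list and 93.7% of the old list. Of those lower, 1689 were shared, 79.6% of the young list and 65.2% of the old. No library is common to the 2 pairs, and whether the pairs differ was not tested. The median of all these genes was 0.44 in the young and 0.17 in the old pair, so the list medians of the 2 pairs are read against different centres. Side by side, the medians were 5.28 (young) and 5.83 (old) for shaft genes, 2.36 and 2.40 for cholesterol synthesis, and -0.96 and -1.40 for adipocyte markers. Part of a gap or a likeness between the pairs can come from that difference in centre. Matrix genes stood further apart, with other matrix genes at -0.01 in the young and -1.44 in the old pair. Immediate early genes were at 0.73 and -0.77, and macrophage markers at -1.12 and -2.44. The young skeletal muscle markers were at -2.55 and the old at -1.87.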

How the data were processed

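Per the labels, total RNA was extracted with Trizol, and the submitters' processing notes name bcl2fastq, TopHat2 and the build GRCm38, without versions. The counting tool and the annotation are not given in the sources used here. The authors deposited FPKM of 22913 genes per library, with a listed length for each gene. Of the Ensembl genes' lengths, 99.2% are multiples of 3, so they are coding lengths. Of 22166 Ensembl identifiers, 21750 were matched to a symbol.

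From these values the changes were computed with a pseudocount of 1, an FPKM of at least 1 in either library and a threshold of 1 on the log2 scale, in Python 3.11.15 with numpy 2.4.6 and pandas 2.3.3, and plotted with matplotlib 3.10.9. Read counts were not used here. Depth was estimated from features of 2000 to 4000 bases, and 3 fragments were taken as the floor, for counting error only. Where YAD was under the floor, the fold was computed against the floor and is a minimum. With 1 library per group no test was made. The genes named were drawn from the 15 largest rises and falls after rescaling, without Gm, Rik and unnamed loci. They were also drawn from the 6 highest keratin genes, mitochondrial genes and members of the lists with the largest changes or highest levels. Rises not named above were Ptgds (6.72), Psors1c2 (6.19), Cnfn (6.16), Bicdl2 (5.86), Dapl1 (5.80), Stra6 (5.77) and Rnf39 (5.75). Falls not named above were Pon1 (-4.20), Phospho1 (-3.72), Plac8 (-3.49), Pkia (-3.40) and Acyp2 (-3.36). The members and lists were chosen with earlier results of these data known. The steps were tested on simulated data. Promoter sequences came from RefSeq (GRCm38.p6). Alternatives were other pseudocounts, filters, thresholds and scalings. Some members of the lists are not reported here.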

Additional observations from a re-analysis of the deposited data

Results flagged for a closer look

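Among the kept genes, 10 were changed by at least 1 on the rescaled log2 scale in opposite directions in the young pair (YAD minus YTD) and in the old pair (OAD minus OTD), which flagged them, and the difference between the pairs was not tested. Those higher in the young and lower in the old pair were Apoc4 (1.06 young, -1.09 old), ENSMUSG00000103171 (2.76 young, -1.97 old), Gfra3 (1.41 young, -1.14 old), Gm10037 (1.89 young, -2.15 old), Gm10135 (1.24 young, -1.32 old), Gm10509 (3.22 young, -3.36 old), Mouse_newGene_1833 (1.35 young, -1.02 old) and Prr14l (1.94 young, -1.55 old). Those lower in the young and higher in the old pair were ENSMUSG00000091964 (-1.33 young, 2.48 old) and Gm10226 (-3.48 young, 2.12 old). Of these, Prr14l had the highest level, at 1.16 FPKM in YTD, 4.63 in YAD, 13.6 in OTD and 3.90 in OAD. Apoc4 was at 7.39, 11.7, 3.42 and 1.19 FPKM in the same order. Gm10037, Gm10226 and Gm10509 were listed at 0 in 2 libraries each. ENSMUSG00000103171 was effectively at 0 in YTD and OAD, at 1.29e-14 and 1.83e-12 FPKM.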

How the results depend on the processing

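No paired analysis was possible because each group has 1 library. With a threshold of 1.5 in place of 1, 1684 genes were higher and 1596 lower as deposited, and 2726 higher and 1117 lower after rescaling. In TPM, 5787 genes were higher and 1274 lower. With the median of ratios in place of the rescaling, 2739 were higher and 2924 lower, so that the excess of higher genes was not kept. The other pseudocounts and filters, and leaving out mitochondrial genes only or muscle markers as well, kept each count within 1.5 times its value. Muscle markers left out for the list medians were added after the data were seen, and moved the median of all genes to 0.21. Of 47 lists, 44 kept the sign of their median on every scale, and de novo lipogenesis, other matrix genes and smooth muscle and pericyte markers did not. All 30 genes with the largest changes kept their direction. This could not have come out otherwise, since their changes were at least 3.33 in size and the scales shifted values by at most 0.84. With 1 library per side, the spread between mice is unknown, and values near the floor are the least certain.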
